A study of Mus musculus with 16 samples.

Results

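Very long genes were followed in nascent RNA from 16 libraries of mouse embryonic stem cells. The set was every gene symbol on chromosomes 1 to 19 whose widest listed row spanned at least 500 kb and had any read, 197 of the 24978 symbols of the deposited table. The rule used position and span only, apart from the requirement of a read. The rule itself was set with earlier results of these data known. The assay was Bru-seq: living cells build bromouridine into new RNA, which is then pulled out with an antibody and sequenced. Reads overlapping SNPs had been assigned to the 129 or the castaneus (cast) copy, since the cells are a cas/129 hybrid with a copy of each chromosome from each strain.

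The cells were clones and controls of the hybrid line F121-9. There were 2 libraries each of abc.del, of ab.del and of c.del. A single library stood for each of ac.del, bc.del, a.del, b.del, 4k.b.c, 100kdel, 245kdel and 680kinv. The parental line F121-9 had 2 libraries. The names give the lettered sites, or the length of DNA in kb, that were edited; from them, del is read here as a deletion and inv as an inversion. The labels give neither the positions of the sites nor the edited copy, and the series is about elements in cis that control DNA replication. All libraries came from cells kept in 2i medium with LIF and labelled with 2 mM bromouridine for 30 min. Sample names within a group end in different codes. The labels do not say that these were separate cultures or separate edits, so each p-value measures only the spread between these samples, which may be technical. Single libraries have no replicate and no error.

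Long genes are a distinctive class in mammals. RNA polymerase needs hours to cross the longest of them, many encode adhesion molecules, receptors and channels of neurons, and most of their length is intron. Several, such as Fhit and Macrod2, are known as common fragile sites, where slow or late replication and transcription meet. In Bru-seq, introns are captured along with exons, so the reads over a long gene report transcription along its body.

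The 197 genes ran from 501754 to 2270659 bases, with a median of 713422, and 44 spanned at least 1000000 bases. GENCODE lists 192 of them as protein coding. Just inside the limit were Edil3 (501754 bases, 0.735 CPM per 100 kb), Dock1 (502961 bases, 72.5) and Car10 (503386 bases, 0.0817). Just outside were Ank3 (493729 bases, 7.41 CPM per 100 kb), Abca13 (492318 bases, 2.37) and Dnm3 (490733 bases, 0.201). The values are read here as CPM, counts per M over all rows of the table, with M for 1000000, although the name of the table says RPKM. Levels are compared between genes only after division by span. Reads had to cover a SNP, and no correction for SNP density was made. Some rows share reads. Iqschfp and Schip1 overlap on 1 strand and Schip1 held 99.9% of the CPM of Iqschfp. Bend5, which lies inside Agbl4, held 55.9% of the CPM of Agbl4, and Snrpn 45.4% of that of Snhg14. Gm37013, Gm38666 and Gm38667, which overlap each other on chromosome 18, likewise count as 3 members but are not independent.

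Libraries held 8.96 M (245kdel) to 32.05 M (ac.del) over genes, with a median of 16.4 M reads, and long genes took 2.48% to 3.82% of the reads of a library. Pluripotency markers summed to 1533 to 2143 CPM over 8 genes, led by Esrrb, Tfcp2l1 and Zfp42 (medians 728, 509 and 287 CPM). The medians of Nanog, Sox2, Pou5f1, Klf4 and Dppa5a were 151, 20.7, 17.2, 12.4 and 5.36 CPM. Marker sums are not divided by span. Neural markers summed to 6.28 to 39.7 CPM over 8 genes, and Neurod1 and Neurog2 among them had 0 reads in every library. Primitive endoderm markers summed to 5.15 to 19.5 CPM over 6 genes, mesoderm markers to 0.330 to 2.96 CPM over 4 genes and fibroblast markers to at most 1.86 CPM over 6 genes. In whole cultures, fewer transcribing cells and less RNA per cell cannot be told apart.

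Most long genes were weakly transcribed, and a minority were among the well transcribed genes of these cells. Their median level was 0.839 CPM per 100 kb, against 3.45 CPM per 100 kb for 745 autosomal genes of 200 kb to under 500 kb and 20.5 for 3738 genes of 50 kb to under 200 kb. A level below 1 CPM per 100 kb was found for 105 long genes, called low here, a level of 1 to under 10 for 49, called middle, and a level of 10 or more for 43, called high. These limits were set after the values were seen. The 43 high genes held a median of 88.2% of all reads of the long genes, and the low genes 1.80%.

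**Figure D1:**
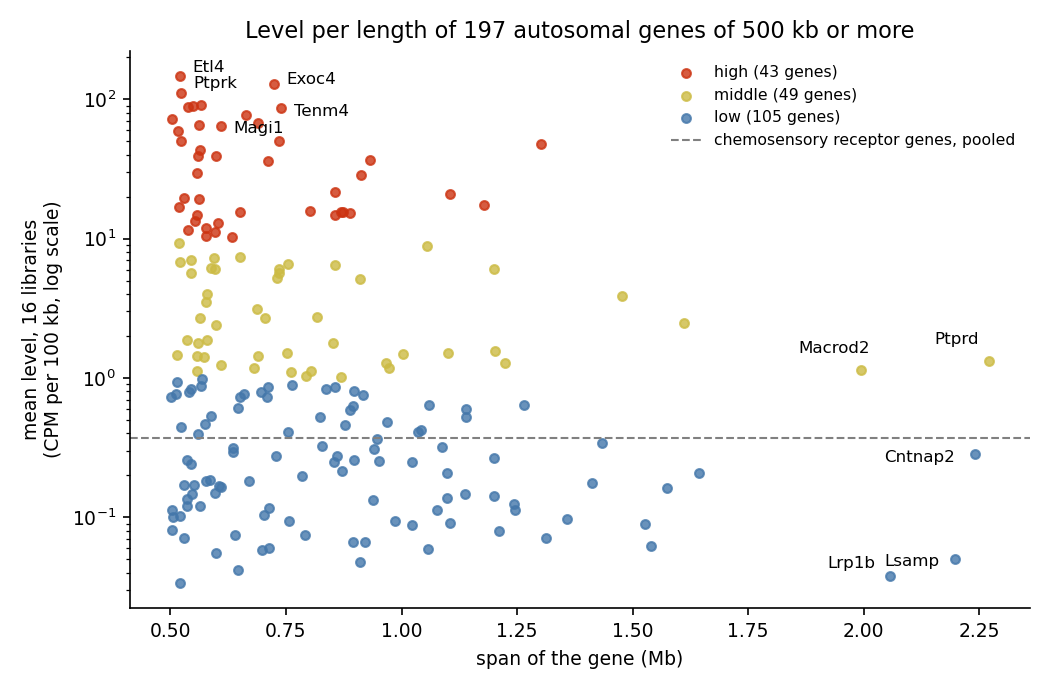
Mean level over 16 libraries (y axis, CPM per 100 kb, log scale) against span (x axis, Mb) of the 197 long genes, 1 point per gene, coloured by level. The dashed line is the pooled level of chemosensory receptor genes, 0.369 reads per M per 100 kb. That unit gives higher values than CPM for the same reads, so the points cannot be read against the line. Levels run from 0.0341 to 147 CPM per 100 kb, and the 5 longest genes lie between 0.0378 and 1.32 CPM per 100 kb.

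The genes with the highest level per length included genes of vesicle traffic, cell polarity and cell contacts. Etl4, a gene needed for intervertebral discs in the mouse, had the highest mean level, 147 CPM per 100 kb, with 401 CPM in the lowest library, a median of 767 and 1148 CPM in the highest. Exoc4, a subunit of the exocyst that tethers secretory vesicles, followed with 129 CPM per 100 kb and 747 to 1150 CPM (median 926). Ptprk, a receptor-type tyrosine phosphatase at cell contacts, had 112 CPM per 100 kb and 349 to 844 CPM (median 576). Divided by span, the ranges of the 3 genes over the libraries overlapped.

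Other genes near the top were Smyd3 (a lysine methyltransferase, 91.3 CPM per 100 kb), Pard3 (a polarity scaffold, 88.8), Tenm4 (a teneurin adhesion receptor, 86.9) and Cdkal1 (a tRNA-modifying enzyme, 76.6). Dock1 (an activator of the GTPase Rac), Ptprg (another receptor phosphatase), Schip1 and Magi1 (a junction scaffold) had 72.5, 67.2, 65.7 and 63.8 CPM per 100 kb. Among these genes, neighbours in level lie close together, and no test was made between them.

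The 5 longest genes were low or at the bottom of the middle class. Ptprd, a presynaptic receptor phosphatase and the longest gene of the set, had 13.8 to 60.2 CPM (median 28.3), or 1.32 CPM per 100 kb. Cntnap2, a neurexin-related adhesion protein of axons, had 2.30 to 17.3 CPM (median 5.81), or 0.287 CPM per 100 kb. Macrod2, which removes ADP-ribose from proteins, had 17.8 to 34.6 CPM (median 21.4), or 1.14 CPM per 100 kb. The limbic adhesion protein Lsamp (0.440 to 3.81 CPM, median 0.921) and the lipoprotein receptor relative Lrp1b (0.319 to 1.72 CPM, median 0.697) were near the bottom per length, with 588 and 427 reads over 16 libraries in all.

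Grouped by function, adhesion and axon guidance genes were mostly low. Of 33 such genes among the long genes, 26 were low, 5 middle and 2 high, and their median was 0.183 CPM per 100 kb. Tenm4 and the catenin Ctnnd2 (14.7 CPM per 100 kb) were the high ones, followed by the guidance ligand Slit3 (6.20) and the receptor Dscam (4.03). The 6 glutamate receptor genes had a median of 0.225 CPM per 100 kb, led by Grid1 (1.10) and Grik2 (0.789), and the 3 cadherin genes Pcdh9, Cdh13 and Pcdh15 had 0.458, 0.422 and 0.325. The 6 genes of the Csmd, Lrp and Sorcs families had a median of 0.107, led by Csmd2 with 1.88.

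Signalling genes were spread more widely, with 9 low, 10 middle and 7 high among 26, including Pard3, Dock1, Magi1 and the cAMP phosphodiesterase Pde4d (47.4 CPM per 100 kb). Ion channel genes split into 6 low, 5 middle and 1 high among 12; the calcium release channel Ryr2 was the high one, with 13.4. The list of transcription and chromatin genes had 5 low, 3 middle and 5 high among 13, among them Smyd3, Auts2 (21.1) and Camta1 (15.8). Its counts include Nav2 (15.6), which encodes the neuron navigator and not a transcription factor. Of 6 receptor phosphatases 2 were high, 3 middle and 1 low. RNA-binding genes were low except for Celf2 (6.45), a splicing regulator. The list of genes known from common fragile sites had 42 long genes, 21 low, 9 middle and 12 high, with a median of 0.951 against 0.839 for all 197. In all, 120 long genes were in at least 1 list and 77 in none.

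Where a long gene is listed with several starts and a single end, the level before and after an inner start can be compared within the gene. Such rows existed for 54 long genes. In 19 of them the innermost interval had at least 4 times the level of the outermost, and in 12 at least 10 times. The outermost lay above the innermost in 26, by at least 4 times in 8. The median ratio of innermost to outermost was 1.07, so no single direction held for the set.

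For several named genes, nearly all reads came from downstream of the inner start. Etl4 had 262 CPM per 100 kb in its last 291023 bases and 0.404 in its first 220134, and the inner interval held 99.7% to 99.97% of the reads of each library. Frmd4a, a scaffold of the FERM family, had 60.9 CPM per 100 kb in its last 54290 bases and 0.108 in its first 135180, with 86.9% to 96.1% of reads in the inner interval. Nav2, the neuron navigator, had 27.8 and 0.118, and Tenm4 91.7 and 2.45. In each of these genes the inner interval held most of the reads in all 16 libraries.

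Cntnap2 is low over most of its length. Its last 56976 bases had 6.39 CPM per 100 kb and held 56.6% of the reads, while the 2184335 bases before had 0.128. The share varied more between libraries, from 27.5% to 83.8% with a median of 56.8%. Schip1 had 229 CPM per 100 kb in its last 54115 bases, with 33.6% of its reads, and 0.740 in its first 403381. The 78187 bases just before that last interval had more, 308 CPM per 100 kb and 65.2% of the reads. Lsamp had 0.147 and 0.00925 in its innermost and outermost intervals, and the tumour suppressor Fhit 3.73 and 0.871.

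The opposite held for a few genes. Spag16, a sperm flagellum protein, had 0.101 CPM per 100 kb in its inner 773518 bases and 5.14 in its outer 124645 bases, and Trpm3, a cation channel, had 0.124 and 2.03. In Lingo2 the inner and outer levels were 0.00121 and 0.407. Macrod2 has a short row near its start, of 27520 bases, that held 33.1% of the reads of the gene at 27.4 CPM per 100 kb, against 0.774 over the rest.

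**Figure D2:**
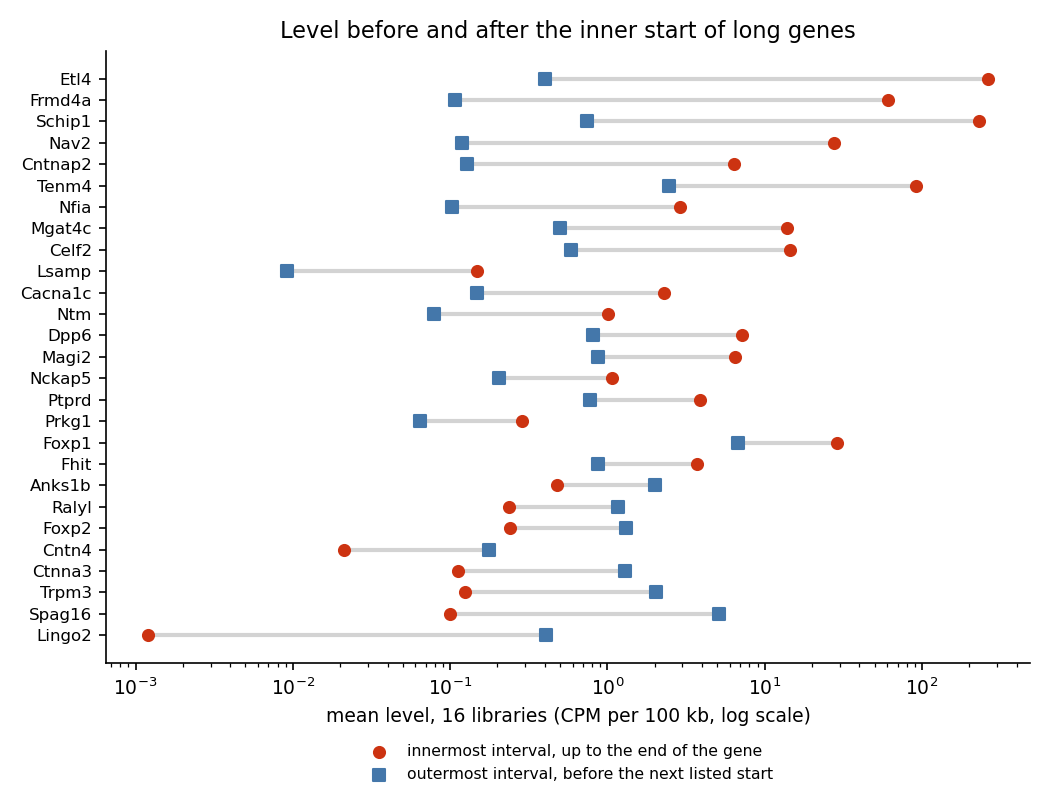
Mean level over 16 libraries (x axis, CPM per 100 kb, log scale) of the innermost interval (red circles) and the outermost interval (blue squares) of 27 long genes whose intervals differ by at least 4 times. In the 19 genes on top the innermost interval is higher, by 648 times for Etl4, and in the 8 below it is lower.

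The sequences just upstream of both starts are shown for 3 of these genes, because their levels per length differed so much between the intervals after the listed starts. Each is the 250 bases before the start on the plus strand of GRCm38.p6, from RefSeq, in lower case with CG dinucleotides in capitals. The inner and outer windows are chr2:20519263-20519512 and chr2:20289663-20289912 for Etl4, chr2:4559504-4559753 and chr2:4017433-4017682 for Frmd4a, and chr6:47244146-47244395 and chr6:45059811-45060060 for Cntnap2.
Etl4 inner start: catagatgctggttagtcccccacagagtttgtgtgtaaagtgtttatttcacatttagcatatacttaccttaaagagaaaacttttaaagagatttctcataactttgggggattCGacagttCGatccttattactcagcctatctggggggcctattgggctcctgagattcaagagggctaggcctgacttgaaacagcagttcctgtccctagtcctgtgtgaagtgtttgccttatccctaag
Etl4 outer start: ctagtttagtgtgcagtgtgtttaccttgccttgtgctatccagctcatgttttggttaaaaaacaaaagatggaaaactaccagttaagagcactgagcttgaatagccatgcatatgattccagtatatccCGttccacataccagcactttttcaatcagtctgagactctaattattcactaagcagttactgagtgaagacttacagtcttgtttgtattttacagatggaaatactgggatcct
Frmd4a inner start: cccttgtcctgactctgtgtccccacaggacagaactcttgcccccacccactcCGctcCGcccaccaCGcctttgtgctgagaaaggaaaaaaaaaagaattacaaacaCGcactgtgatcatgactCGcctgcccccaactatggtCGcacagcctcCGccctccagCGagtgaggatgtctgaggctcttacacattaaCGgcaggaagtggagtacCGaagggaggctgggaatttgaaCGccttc
Frmd4a outer start: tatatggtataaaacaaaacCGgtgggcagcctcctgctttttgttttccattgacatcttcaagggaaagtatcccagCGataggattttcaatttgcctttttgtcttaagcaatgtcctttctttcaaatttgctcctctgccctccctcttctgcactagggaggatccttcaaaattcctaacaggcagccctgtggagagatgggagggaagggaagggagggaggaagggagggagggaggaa
Cntnap2 inner start: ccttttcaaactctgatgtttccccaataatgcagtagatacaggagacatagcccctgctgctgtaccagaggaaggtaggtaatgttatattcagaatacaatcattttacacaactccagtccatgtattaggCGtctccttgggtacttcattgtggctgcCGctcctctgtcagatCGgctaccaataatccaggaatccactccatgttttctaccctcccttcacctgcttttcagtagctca
Cntnap2 outer start: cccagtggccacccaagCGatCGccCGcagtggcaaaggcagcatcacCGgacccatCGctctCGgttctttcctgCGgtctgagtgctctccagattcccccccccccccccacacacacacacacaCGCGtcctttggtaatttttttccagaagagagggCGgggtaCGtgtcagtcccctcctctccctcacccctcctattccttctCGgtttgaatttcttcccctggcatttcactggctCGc

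CG dinucleotides are the sites of DNA methylation and are dense at many promoters of widely used genes. The inner start of Frmd4a, after which reads were dense, had 11 CG in its window and the outer start 2. In Cntnap2 the order was the other way, with 3 CG before the inner start and 13 before the outer. Both windows of Etl4 were poor in CG, with 2 before the inner start and 1 before the outer. Over the 146 long genes with a RefSeq promoter entry at the start of the widest row, 61.0% had at least 10 CG in the 250 bases, against 58.3% of 14608 autosomal genes. Among low genes the shares were 57.5% of 73 long genes and 22.3% of all 4253 low autosomal genes, and among high genes 68.8% of 32 and 80.3% of 7496. CG reads the same on both strands, and a count of CG is a description of the window, not of its use.

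The first comparison asked whether long genes were transcribed differently in clones lacking all 3 lettered sites and in the parental line. By limma with Benjamini-Hochberg adjustment over 14094 genes, 0 of the 196 long genes tested passed the threshold of 0.05 in abc.del against F121-9, where 0.22% of all genes passed. Skint5, with 83 reads in all, was not tested because its mean was below 0.2 CPM. At an unadjusted p of 0.05, 54 long genes passed, or 27.6%, where 10.3% of all genes did. edgeR called 1 long gene (0.128% of all genes) and DESeq2 called 18, all lower in abc.del (2.5% of all genes). With only these 2 groups in the fit 24 long genes passed, 20 of them lower (4.25% of all genes), and with the run of sample numbers as a covariate 27, 25 of them lower (4.76% of all genes). The sample numbers form 2 runs of 8 libraries, whose meaning the labels do not give; abc.del and F121-9 lie wholly in the first run. Median centring of each library gave 4 calls (0.617% of all genes), a pseudocount of 1 gave 1 (0.326%) and all 16 libraries in the fit gave 1 (0.241%). Leaving out c.del replicate 1 or c.del replicate 2, which enter only through the shared spread, gave 6 calls (1.01% of all genes) and 7 calls (1.11%). Leaving out ab.del replicate 1 or ab.del replicate 2 gave 1 call each (0.213% and 0.255% of all genes).

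The changes were not centred on 0. Their median was -0.62 on the log2 scale, with 151 of 196 long genes below 0, while the median over 13583 autosomal genes was 0.06 with 44.7% below 0. Low long genes had a median of -1.03, middle ones -0.50 and high ones 0.05. The median of low genes was -0.60 without abc.del replicate 1 and -1.35 without abc.del replicate 2, and that of high genes was 0.11 without abc.del replicate 2. The other 793 low autosomal genes had a median of -0.67, and the 227 low genes of 200 kb to under 500 kb -0.74. In 105 long genes both abc.del libraries lay below both F121-9 libraries, which was so for 24.9% of all genes. In 27 they lay above, which was so for 29.0% of all genes. The 105 comprised 68 low, 30 middle and 7 high genes. The values are log2(CPM + 0.1), which understates the change of low genes, and an exact permutation test of 2 libraries against 2 cannot reach the threshold.

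Low genes carry few reads, and their level moved with that of genes that stem cells are not known to use. Over 1449 olfactory and vomeronasal receptor genes, of which 250 had any read, the pooled level ranged from 0.171 reads per M per 100 kb in abc.del replicate 1 to 0.802 in 245kdel. The 105 low long genes, pooled, ranged from 0.395 in abc.del replicate 1 to 1.16 in 245kdel, the same lowest and highest library. In abc.del they had 0.395 and 0.492, against 0.794 and 0.678 in F121-9. For the receptor genes the abc.del libraries had 0.171 and 0.390 and the F121-9 libraries 0.554 and 0.454.

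The low long genes exceeded the receptor genes by 0.224 and 0.102 in abc.del and by 0.239 and 0.224 in F121-9. Over the 16 libraries together, the receptor genes had 0.369 reads per M per 100 kb. Pooled levels count reads per M over the widest rows only, and give higher values than CPM per 100 kb for the same reads. Single long genes, whose levels are in CPM, were therefore not counted against the receptor level. The part of this shared movement in the changes of the low genes was not tested. Middle long genes had 5.32 and 5.04 in the abc.del libraries, against 7.75 and 7.66 in F121-9, and the groups did not overlap. High long genes had 88.3 and 85.9 in the abc.del libraries, against 84.3 and 86.0 in F121-9, and their ranges overlapped.

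**Figure D3:**
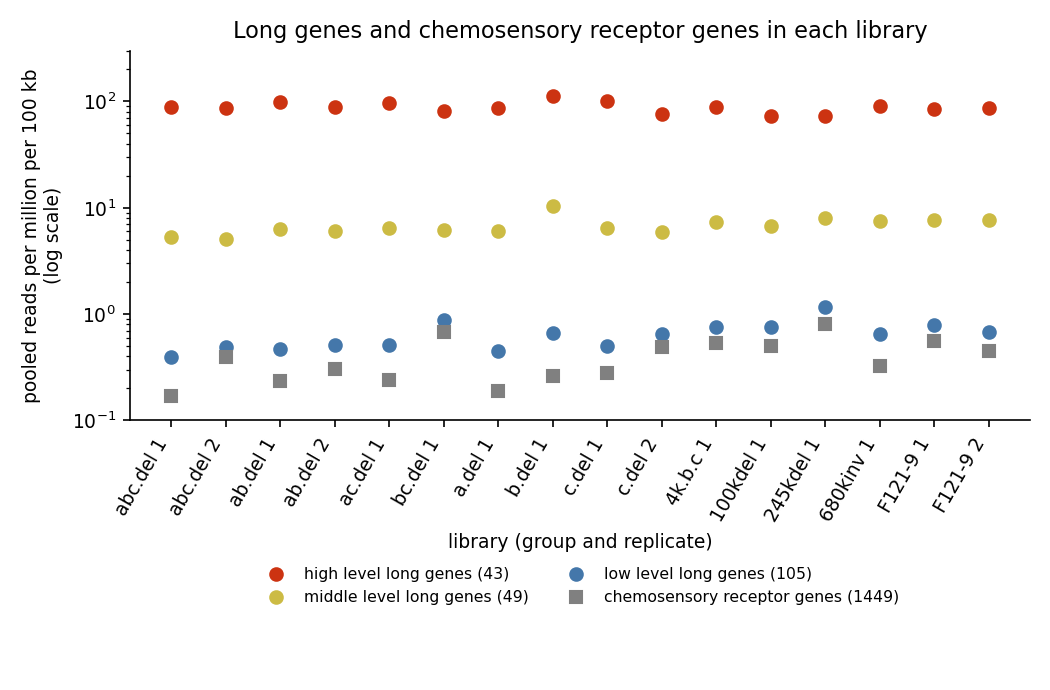
Pooled reads per M per 100 kb (y axis, log scale) of high, middle and low long genes and of chemosensory receptor genes by library (x axis, 16 libraries), with a point for each set. The low long genes and the receptor genes share their lowest library, abc.del replicate 1, and their highest, 245kdel, while the high long genes stay between 72.6 and 113.

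Among single genes, Tmem132d, which encodes a transmembrane protein, had 7.33 and 11.9 CPM in the abc.del libraries, against 144 and 124 CPM in F121-9. Both abc.del libraries were far below both F121-9 libraries. The change was -3.82 (SE 0.68, limma adjusted p = 0.0801) and did not pass. In the other lettered deletions Tmem132d had 14.5 and 26.8 CPM in ab.del, 9.08 and 52.5 CPM in c.del, 10.4 in ac.del, 4.03 in bc.del, 10.7 in a.del and 7.99 in b.del. In 4k.b.c, 100kdel, 245kdel and 680kinv it had 83.4, 83.4, 93.0 and 81.0 CPM. Every library named for deleted lettered sites alone thus lay below every other library, a pattern seen after the values were known and not tested.

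Hs6st3, which adds sulfate to heparan sulfate chains, had 10.5 and 13.2 CPM in the abc.del libraries, against 47.0 and 41.2 CPM in F121-9. The groups did not overlap, and the change of -1.90 (SE 0.30) had a limma adjusted p of 0.0505, just above the threshold; it was the call made by edgeR. Alk, a receptor tyrosine kinase of neural cells, had 17.2 and 25.1 CPM in the abc.del libraries, against 47.1 and 67.6 CPM in F121-9. Its change was -1.44 (SE 0.27, limma adjusted p = 0.0907).

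On the higher side, Dock1 had 483 and 528 CPM in the abc.del libraries, against 325 and 371 CPM in F121-9. Syne1, a nuclear envelope protein linked to the cytoskeleton, had 123 and 120 CPM in the abc.del libraries, against 88.6 and 79.1 CPM in F121-9. Auts2, a chromatin regulator of neurodevelopment, had 227 and 232 CPM in the abc.del libraries, against 143 and 156 CPM in F121-9. The groups did not overlap for any of the 3, with changes of 0.54, 0.54 and 0.62 and limma adjusted p from 0.297 to 0.363.

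By function, 31 of 33 adhesion and guidance genes lay below 0 in abc.del (median -1.14), as did 6 of 6 glutamate receptor genes (-1.06). So did 11 of 12 ion channel genes (-0.72) and 5 of 6 Csmd, Lrp and Sorcs genes (-0.95). Beside these counts, 77.0% of all long genes tested and 88.5% of the low ones lay below 0, against 46.3% of all genes. Low genes made up 26 of the 33 adhesion and guidance genes and 5 of the 6 glutamate receptor genes. Signalling genes had 19 of 26 below 0 (-0.31), fragile site genes 30 of 42 (-0.65) and the transcription list, with Nav2, 8 of 13 (-0.13). Receptor phosphatase genes had 3 of 6 (-0.12), RNA-binding genes 3 of 5 (-0.16) and cadherin genes 2 of 3 (-0.11). No member of any list passed the test. Neural markers summed to 9.47 CPM on average in abc.del and 6.96 CPM in F121-9.

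The ab.del and c.del groups were set against the same F121-9 libraries, so the 3 comparisons share their controls. Both F121-9 libraries lie in the first run of sample numbers. ab.del replicate 2 and c.del replicate 2 lie in the second, so run and group partly coincide here. In ab.del 0 long genes passed in limma, where 0.0497% of all genes did. Of the long genes 51 had an unadjusted p under 0.05, where 7.8% of all genes did; edgeR called 0 (0.078% of all genes) and DESeq2 12, all lower (1.33% of all genes). With the run of sample numbers as a covariate 14 passed, 5 higher and 9 lower (1.43% of all genes), with only the 2 groups 1 (0.149%), and leaving out c.del replicate 1 gave 1 (0.284%) and c.del replicate 2 gave 3 (0.376%). The median change was -0.42, with 134 of 196 below 0, where 40.9% of autosomal genes lay below 0. Low, middle and high long genes had medians of -0.83, -0.30 and 0.22, and that of high genes was 0.08 without ab.del replicate 1. The other low autosomal genes had a median of -0.41, and low genes of 200 kb to under 500 kb -0.55. Both ab.del libraries lay below both F121-9 libraries for 97 long genes (18.3% of all genes) and above for 29 (22.7% of all genes).

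In ab.del, the nuclear receptor gene Rora had 62.6 and 61.8 CPM, against 28.6 and 29.4 CPM in F121-9, a change of 1.10 (SE 0.28, limma adjusted p = 0.323). Magi2, a synaptic scaffold, had 65.8 and 60.9 CPM in ab.del, against 28.8 and 27.8 CPM in F121-9. Inpp4b, a phosphoinositide phosphatase, had 0.189 and 0.222 CPM in ab.del, against 2.60 and 1.69 CPM in F121-9, a change of -2.85 (SE 0.60, limma adjusted p = 0.234). The groups did not overlap for these genes, nor for Syne1 (change 0.64), the secreted protein Nell1 (-1.97) and the postsynaptic scaffold Dlgap2 (-1.42), and none passed.

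In c.del 0 long genes passed in limma, where 0.0497% of all genes did. Of the long genes 31 had an unadjusted p under 0.05, where 9.44% of all genes did; edgeR called 0 (0.0568% of all genes) and DESeq2 9, all lower (1.59% of all genes). With the run as a covariate 8 passed, 2 higher and 6 lower (1.47% of all genes), and without c.del replicate 2 there were 3 (0.206% of all genes). The median change was -0.34, with 144 of 196 below 0, where 41.5% of autosomal genes lay below 0. Low, middle and high long genes had medians of -0.64, -0.36 and 0.01. That of high genes was -0.13 with the first c.del library left out and 0.16 with the second left out. The other low autosomal genes had a median of -0.26, and low genes of 200 kb to under 500 kb -0.41. For 77 long genes the c.del libraries were both under the F121-9 pair (16.5% of all genes), and for 23 both over it (22.5% of all genes).

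Gmds, the first enzyme of GDP-fucose synthesis, had 34.2 and 34.8 CPM in c.del, against 62.3 and 68.8 CPM in F121-9, a change of -0.92 (SE 0.19, limma adjusted p = 0.203). Foxp2, a forkhead factor, had 1.53 and 2.96 CPM in c.del, against 7.22 and 9.58 CPM in F121-9, and the potassium channel Kcnma1 had 15.2 and 9.69 CPM, against 26.6 and 28.3 CPM. Enox1 had 421 and 219 CPM in c.del, against 143 and 75.6 CPM in F121-9, a change of 1.55 (SE 0.46, limma adjusted p = 0.368). The groups did not overlap for these 4 genes, nor for Auts2 (change 0.90) and Nkain3 (1.60), and none passed.

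**Figure D4:**
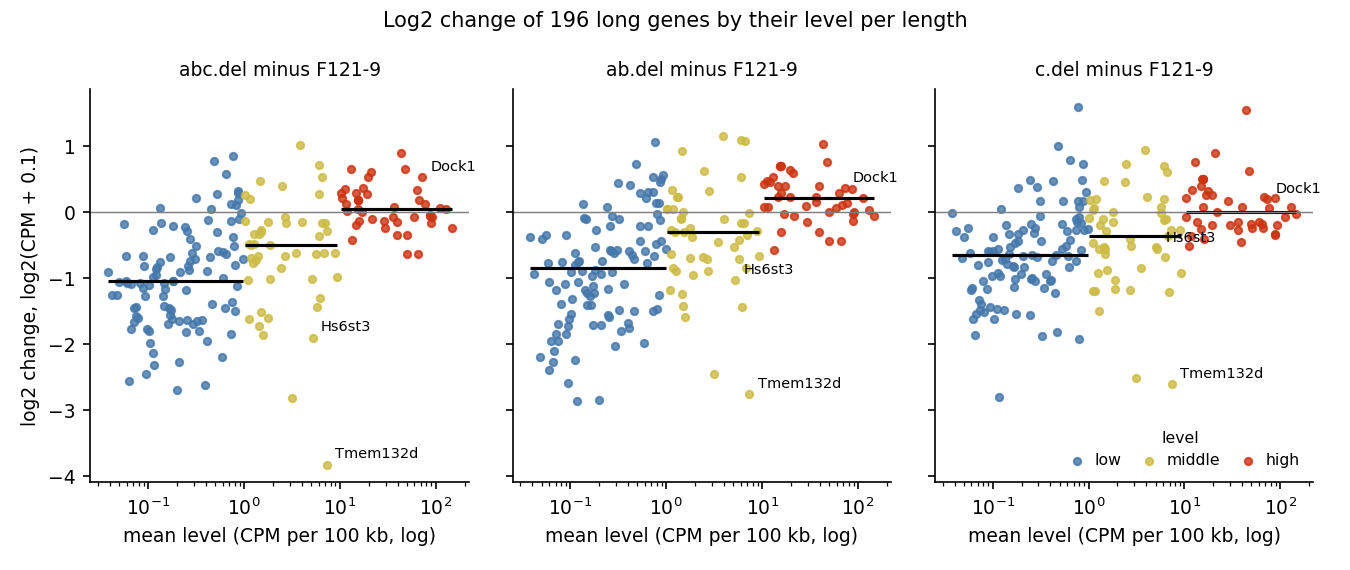
Log2 change of log2(CPM + 0.1) against F121-9 (y axis) by mean level over 16 libraries (x axis, CPM per 100 kb, log scale) for 196 long genes in abc.del, ab.del and c.del, 1 point per gene, with the median of low, middle and high genes as black lines. The medians of low genes lie at -1.03, -0.83 and -0.64 and those of high genes at 0.05, 0.22 and 0.01; the 3 panels share the F121-9 libraries.

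The 12 libraries whose names hold only lettered sites, with F121-9, were also fitted with a term for the deletion of each site, with 6 libraries named as lacking the site and 6 others, F121-9 among them. For the deletion of site a, 0 long genes passed in limma (0.0142% of all genes). Of the long genes 38 had an unadjusted p under 0.05 (8.84% of all genes). edgeR called 0 (0.0142% of all genes) and DESeq2 16, all lower (1.14% of all genes). Median centring gave 2 calls (0.0497% of all genes), the run as a covariate 1 (0.0426%), and leaving out c.del replicate 1 gave 1 (0.0426%). The median change was -0.38, with 158 of 196 below 0, and low long genes had a median of -0.59 with 99 of 104 below 0. Without bc.del these medians were -0.22 and -0.40, and without b.del the median of low genes was -0.96. Over all autosomal genes tested the median was 0.11, with 36.4% below 0. The other low autosomal genes had a median of -0.29 with 69.1% below 0. Low genes of 200 kb to under 500 kb had a median of -0.55 with 77.5% below 0. The receptor genes ranged from 0.171 to 0.390 in the 6 libraries with site a deleted and from 0.263 to 0.678 in the 6 others.

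Inpp4b had 0.154 to 0.353 CPM (median 0.213) in the 6 libraries with site a deleted, against 0.664 to 2.60 CPM (median 1.09) in the 6 others, and the arms did not overlap. Its change was -1.76 (SE 0.39, limma adjusted p = 0.324). Such a gap was found for 5 long genes, Inpp4b, Nell1, Hpse2, Fstl5 and a gene listed as Mar-01, all lower with site a deleted, where 0.227% of all genes did so. Dock2, a Rac activator of blood cells, had 1.57 to 4.00 CPM (median 2.56) with site a deleted, against 3.58 to 9.77 CPM (median 8.59) in the others, a change of -1.54. Ccser1, a fragile site gene, had 5.57 to 11.9 CPM (median 6.99) with site a deleted, against 7.55 to 29.6 CPM (median 24.1) in the others, a change of -1.43. The arms overlapped for both, and the smallest p on the higher side, for the forkhead gene Foxp1, Nav2 and the kinase gene Mast4, went with changes of 0.55, 0.52 and 0.38.

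For the deletions of sites b and c, 0 long genes and 0 of all genes passed in limma (0.0% in both). At an unadjusted p of 0.05 these were 12 long genes for site b (5.09% of all genes) and 14 for site c (3.26% of all genes), and edgeR and DESeq2 called 0 long genes in either, where DESeq2 called 0.0568% of all genes for site b and 0.0213% for site c. The median changes were 0.10 for site b and -0.07 for site c; with a library left out they ran from 0.02 (without bc.del) to 0.14 (without ac.del) for site b and from -0.15 (without b.del) to -0.04 (without F121-9 replicate 1) for site c. The synaptic release gene Rims1 had 16.9 to 29.1 CPM (median 26.7) with site b deleted, against 23.6 to 66.6 CPM (median 42.4) in the others. The calcium channel gene Cacna1c had 3.76 to 5.92 CPM (median 5.42) with site c deleted, against 5.69 to 10.5 CPM (median 9.03) in the others. The arms overlapped in both, with changes of -0.86 and -0.71 and limma adjusted p of 0.885 and 1.00. No long gene separated the arms of site b, which 0.163% of all genes did as lower and 0.0568% as higher, or of site c, with 0.0851% and 0.0355%.

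Across all 16 libraries, low long genes varied most, with a median SD of 0.84 on the log2 scale, against 0.57 for middle and 0.38 for high genes. The genes with the largest SD were Tmem132d (1.72), Cntnap5b (1.63), Slc9a9 (1.62), Nrxn3 (1.61), Inpp4b (1.53), Naaladl2 (1.499), Pcdh15 (1.43) and Ptprm (1.39). Ptprm, a receptor phosphatase at cell contacts, had 3.01 to 61.4 CPM (median 13.8), and its 2 highest libraries were 245kdel and 100kdel, with 61.4 and 48.7 CPM, against 38.4 and 36.2 CPM in F121-9. The ion exchanger gene Slc9a9 had 12.7 CPM in 245kdel and 5.92 in 100kdel, against 2.43 and 2.42 CPM in F121-9, and Inpp4b 12.9 and 2.07 CPM in those libraries. 245kdel, with 8.96 M reads, was the shallowest library and had the highest receptor gene level. Both 245kdel and 100kdel lie in the second run of sample numbers, and F121-9 in the first. Nrxn3, with 559 reads in all, and Cntnap5b, with 443, rest on few reads in each library.

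The hybrid cells allow both copies of each long gene to be compared within a library. Of the 196 long genes, 117 passed limma in 129 minus cast over all 16 libraries, 60 higher from 129 and 57 higher from cast, where 45.2% of all genes passed, 23.8% higher from 129 and 21.4% higher from cast. That is 59.7% of the long genes, and 58.0% of the genes of 200 kb to under 500 kb passed. Among the 117, 53 had the same direction in all 16 libraries, and 15.8% of all genes passed in this way. A difference of at least 1 on the log2 scale was found for 59 of the 117, 32 higher from 129 and 27 from cast, where 14.2% of all genes passed with such a size. The libraries are clones of a single line, so the spread is that between these libraries. Preference in assigning reads to either copy was not tested.

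Sgcz, a sarcoglycan of muscle and nerve, was low from cast. It had 4.78 to 22.5 CPM (median 12.4) from 129, against 0 to 2.16 CPM (median 0.543) from cast, and 129 was higher in 16 of 16 libraries. The difference was 4.21 (SE 0.27, limma adjusted p = 1.57e-09). Grm5, a metabotropic glutamate receptor, had a median of 1.20 CPM from 129 and 0.116 CPM from cast, a difference of 2.28 (SE 0.27, limma adjusted p = 2.08e-06), with 129 higher in 15 of 16 libraries and both at 0 in the other.

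Higher from cast were Thsd4, a matrix protein gene, with 3.19 to 18.7 CPM (median 7.03) from 129 and 28.1 to 112 CPM (median 68.9) from cast, and Alk, with 1.22 to 24.7 CPM (median 12.1) from 129 and 6.78 to 173 CPM (median 69.5) from cast. The values of Thsd4 did not overlap between the copies. The differences were -3.27 (SE 0.17, limma adjusted p = 2.22e-10) and -2.56 (SE 0.16, limma adjusted p = 1.33e-09), in the same direction in 16 of 16 libraries. Agbl1 (-3.41), Nkain2 (-2.38) and Syne1 (-2.01) were also lower from 129 in every library.

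Etl4 (0.09, limma adjusted p = 0.168) and Frmd4a (0.16, limma adjusted p = 0.0671) did not pass. Cntnap2 was higher from 129 by 0.66 (limma adjusted p = 0.0116), in 13 of 16 libraries. Tmem132d was higher from 129 by 1.13 (limma adjusted p = 0.000129), in 15 of 16 libraries. Snhg14, the host of an imprinted gene cluster, differed by 0.20 (limma adjusted p = 0.0112), with 14 of 16 libraries above 0.

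In a few libraries whole chromosomes were unequal. On chromosome 1, which holds 18 long genes, a.del and 4k.b.c had 26040 and 15422 reads of those genes from 129, and 348 and 183 from cast. On chromosome 12, with 9 long genes, the same libraries had 77 and 34 reads from 129, and 21151 and 12339 from cast. On chromosome 3, with 16 long genes, c.del replicate 1 had 23909 reads from 129 and 44932 from cast. The 129 minus cast median over the genes tested on the chromosome was -1.11 for that pair, and 4 further pairs were close to it: chromosome 8 in a.del (-0.99) and 4k.b.c (-0.94), chromosome 3 in ac.del (-0.97) and chromosome 7 in 4k.b.c (-0.86). The medians of the other 295 chromosome and library pairs lay between -0.28 and 0.18. The unequal pairs enter the differences of the genes on those chromosomes. For genes on chromosome 1, Rims1 differed by 2.93 with the 5 pairs beyond 1 and 2.01 without (limma adjusted p = 2.32e-09), and Nckap5 by 3.44 and 2.72 (adjusted p = 1.56e-05). With the 5 pairs set as missing 129 long genes passed, 66 higher from 129 and 63 higher from cast, where 49.5% of all genes did. The 3 site and 3 group comparisons use the mean of both copies, and the median changes without the long genes on chromosomes 1, 3 and 12 were -0.61 in abc.del, -0.34 in ab.del and -0.32 in c.del.

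**Figure D5:**
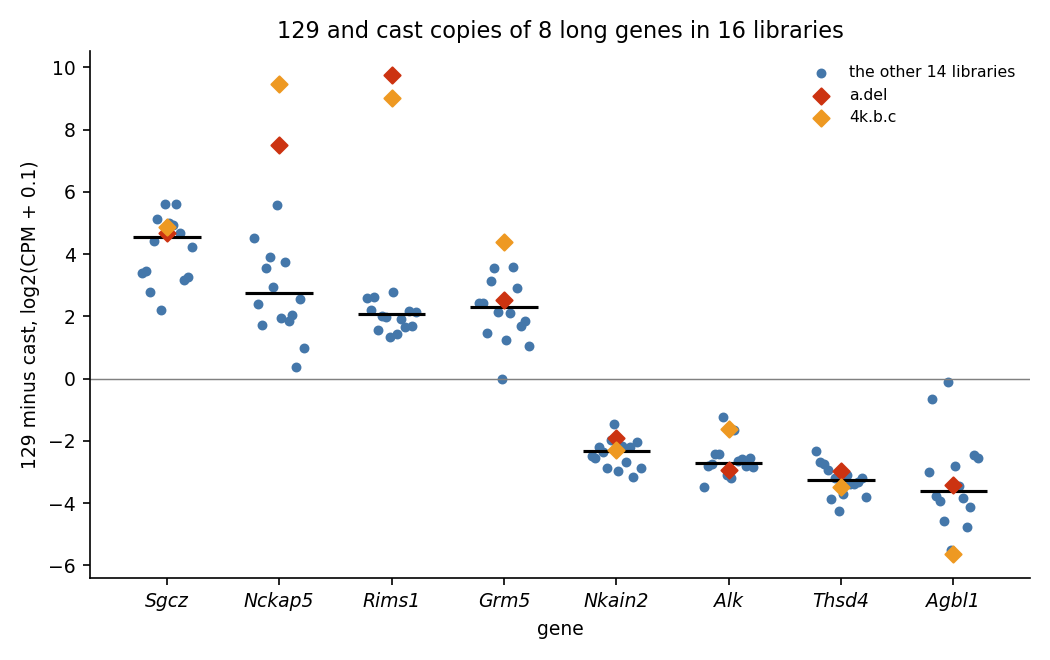
129 minus cast difference of log2(CPM + 0.1) (y axis) for 8 long genes (x axis), 1 point per library, with a.del and 4k.b.c as diamonds and the median as a black line. Sgcz is above 0 in all 16 libraries and Thsd4 below 0 in all 16, and the diamonds of Nckap5 and Rims1, on chromosome 1, stand above the other libraries.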

How the data were processed

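Bru-seq values of 16 libraries came from a single table of 42497 lines with 2 columns per library, 1 for each copy. Per the submitters' processing notes, Bowtie2, bedtools and mm10 were used, with versions not given there. Per the labels' protocols, RNA was labelled with 2 mM bromouridine for 30 min and libraries were strand specific, with 100 bp single-end reads. The authors deposited the values under a name that says RPKM, but each column sums to 1000000 and no division by length was found, so they were treated as CPM. Dividing by the smallest value above 0 gave whole reads, within 0.01, for 100% of values; these were used for edgeR, DESeq2 and pooled levels. Intervals of counting error are not printed, and the depth limits what low genes can show.

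For each symbol the widest line was used, and 6 segments drawn by the authors were left out. Bc1 was left out because its widest line is on the X chromosome. The symbol Mar-01 looks like a gene name turned into a date and was kept as listed. Values were log2(mean CPM of both copies + 0.1) for 14094 genes with a mean of at least 0.2 CPM, which a gene can pass through a few libraries alone. In R 4.3.3, limma 3.58.1 was fitted with a trend in eBayes (two-sided tests, Benjamini-Hochberg adjustment over all genes, threshold 0.05) over the 8 libraries of the groups with 2 libraries, over 12 libraries for the sites, and over 16 libraries for 129 minus cast. Alternatives were other pseudocounts and filters, autosomal genes only, median centring, each copy alone, run of sample numbers, other sets of libraries, each library left out, edgeR 4.0.16 (quasi-likelihood) and DESeq2 1.42.0. The scripts were tested on simulated data. For every comparison the simulated spread came from the fit of the 12 site libraries, and the changed genes were drawn from all levels. Recovery in the real group tests may therefore differ. In the simulation the group tests recovered 0.926% (abc.del), 1.79% (ab.del) and 3.16% (c.del) of genes changed by 1 on the log2 scale. Of genes changed by 2 they recovered 32.6%, 27.3% and 36.2%. The site tests recovered 31.3% to 36.5% and 72.1% to 74.1%. A count of 0 passing genes therefore does not show that none changed. Python 3.11.15 with pandas 2.3.3 and matplotlib 3.10.9 did the rest. Promoter windows are those of RefSeq within 1000 bases of the start of the widest line.

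The genes, lists, level limits and receptor genes were chosen with earlier results of these data known. Named genes are the 12 highest in level per length, the 5 longest, the 3 on each side of the span limit, the 8 with the largest SD, the 4 with the largest allele difference each way, up to 4 per list, and in each comparison the 5 largest passing changes each way or, with under 5 calls, the 3 of smallest p each way. Others named, such as those with several starts, were chosen after their values were seen. A result that this rule would name is not reported here.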

Additional observations from a re-analysis of the deposited data

Results flagged for a closer look

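In 2 of 36 sets of 6 libraries checked for the genes named in the site comparisons, a single library stood apart from the other 5, where chance gives about 1 in 20. Ccser1 had 7.55 CPM in c.del replicate 1, the lowest of the 6 libraries not named as lacking site a, and the next lowest had 23.2 CPM. Npas3, a bHLH-PAS transcription factor, had 15.5 CPM in b.del, the highest of the 6 libraries with site b deleted, and the next highest had 5.07 CPM.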

How the results depend on the processing

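No paired analysis was possible because only the F121-9 libraries carry replicate numbers in their labels. The number of long genes passing was 0 in limma for the group and site comparisons. Between abc.del and F121-9 it was 1 with a pseudocount of 1, with all 16 libraries or in edgeR, 4 with median centring, 18 in DESeq2, 24 with only the 2 groups and 27 with the run of sample numbers as a covariate; leaving out a library gave 0 to 7. For ab.del it was 1 with only the 2 groups, 12 in DESeq2 and 14 with the run, and 0 to 3 with a library left out. For c.del it was 9 in DESeq2, 8 with the run and 0 to 3 with a library left out. For site a it was 1 with the run, 2 with median centring, 16 in DESeq2 and 0 to 1 with a library left out. The cause was not tested. For sites b and c it was 0 in every setting run. For 129 minus cast it was 110 to 129, and 112 to 118 with a library left out. In the main fit it was 117, where 45.2% of all genes passed. The 129 calls came with the unequal pairs set as missing, where 49.5% of all genes passed. The shares of all genes in the other 129 minus cast settings are not given here.

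The median change of all long genes stayed below 0 for abc.del (-0.70 to -0.37), ab.del (-0.57 to -0.25), c.del (-0.51 to -0.25) and site a (-0.55 to -0.22) in every setting run. Median centring moved the median of all genes from 0.08 to -0.07 in ab.del, from 0.09 to -0.08 in c.del, from 0.10 to -0.06 for site a and from -0.10 to 0.04 for site b. The counts of long genes whose abc.del libraries lay below F121-9 were 106 on 129 alone (23.0% of all genes), 100 on cast alone (23.1%) and 113 with median centring (28.1%), alternatives added after the data were seen, as were the medians without chromosomes 1, 3 and 12. With cast alone Rims1 changed by 1.04 with site b deleted and Pard3b by 0.48 with site c deleted, both reversed; both lie on chromosome 1, where a.del, which keeps both sites, had 1 cast read of Rims1 and 2 of Pard3b. The median level was 1.28 CPM per 100 kb over genes with a mean of at least 1 CPM, a filter that leaves out the lowest genes. At 8.96 M to 32.05 M reads, genes near the receptor level rest on a few reads per library.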

Other observations

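The b.del library held the highest of the 16 values for 43 of the 196 long genes tested, and the lowest for 29. The highest lay in 245kdel for 35, in bc.del for 33, in 4k.b.c for 24 and in the 2 F121-9 libraries for 14 and 7. The shares over all genes were not counted. b.del, 245kdel, bc.del and 4k.b.c were also the libraries with the fewest reads (9.56, 8.96, 10.6 and 9.86 M). The part of depth in these counts was not tested. Middle long genes, pooled, had 10.3 reads per M per 100 kb in b.del, the highest of the 16 libraries, against 7.75 and 7.66 in F121-9, and high long genes 113, against 84.3 and 86.0. Magi2 had 185 CPM in b.del, against 28.8 and 27.8 CPM in F121-9, Alk 96.5 CPM, against 47.1 and 67.6 CPM, and the potassium channel gene Kcnma1 40.1 CPM, against 26.6 and 28.3 CPM. b.del is a single library of 9.56 M reads, so these are values with no error and no test. It lies in the second run of sample numbers and F121-9 in the first, so run and edit cannot be told apart here.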
